A study of Mus musculus with 2 samples.

Results

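The 10 genes described here code for the cyclins, cyclin-dependent kinases (CDKs) and CDK inhibitors that govern the G1 phase of the cell cycle, the interval in which a T cell either commits to copying its DNA or stays at rest. They are the D-type cyclins Ccnd2 and Ccnd3, the E-type cyclins Ccne1 and Ccne2, the kinases Cdk2, Cdk4 and Cdk6, and the inhibitors Cdkn1a (p21), Cdkn1b (p27) and Cdkn2c (p18). They were chosen by symbol, all 10 were found once each among the 32285 genes listed, and each was measured in non-cycling, S phase and mitotic CD8 and CD4 T cells at 2 times after transplantation.

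The cells were donor T cells from the spleens of mice with acute graft-versus-host disease, the attack of donor T cells on the tissues of a transplant host. Lethally irradiated BALB/c hosts received T cell-depleted C57BL/6 bone marrow and wild-type C57BL/6 T cells at a dose for which the labels and a legend of the study give different values. The study's methods give naive T cells for this transplant model, while its legends for this experiment name splenic T cells without calling them naive. The methods, which describe young adult mice, name females in a passage and both sexes in another. Donor T cells were sorted as CD45+, H2Kb+, H2Kd- and TCRb+ cells from pooled spleens, and 1 droplet library was made for day +7 and 1 for day +14. The library names mark both as PBS, the sorting note in the labels names the earlier day for both libraries, and the day used here is that of the sample title. No untreated or day 0 cells were analysed here. With 1 library for each day, time and library cannot be told apart and no test between them is possible; every interval below is a 95% interval for counting error alone.

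In G1, cyclin D binds CDK4 or CDK6, and the pair phosphorylates the retinoblastoma protein, which releases E2F transcription factors. E2F then drives the genes of S phase, the E-type cyclins among them, and cyclin E with CDK2 completes the switch. p27 and p21 bind and restrain cyclin-CDK2 complexes, while p18 belongs to the INK4 family, which binds CDK4 and CDK6 directly. T cells mostly use cyclin D2 and cyclin D3 rather than cyclin D1, and they lower p27 as they leave rest after antigen and interleukin-2 signals.

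After the limits of 500 to 7500 detected genes and at most 15% mitochondrial UMIs (unique molecular identifiers, each standing for 1 captured RNA molecule), 7179 of 7355 barcodes remained at day +7 and 7794 of 8043 at day +14, with 86745047 and 83808218 UMIs. Of these, 5988 and 5986 were CD8 cells and 478 and 709 were CD4 cells, while 17 kept barcode sequences occurred in both libraries. Each T cell was placed by its UMIs from 25 S phase and 22 mitotic genes, none of them a member: at day +7 and day +14 there were 1241 and 947 non-cycling, 598 and 1015 S phase and 3304 and 3214 mitotic CD8 cells, and 165 and 218, 73 and 102, and 177 and 193 CD4 cells. The gates were cut from continuous scores, so 188 and 276 of the S phase CD8 cells and 811 and 700 of the mitotic ones lay within 2 times the cut, and 59 of the 102 S phase CD4 cells of day +14 did.

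Genes outside the scores were in accord with the gate names on most points. Summed replication-dependent histones were at 230.2 and 77.7 UMIs per 1000000 UMIs of the gate (CPM) in non-cycling CD8 cells, 1599 and 571 in S phase and 5451 and 2770 in the mitotic gate at day +7 and day +14, and the cyclin and kinase genes of mitosis, Ccnb1, Ccnb2, Cdk1 and Ccna2, were together at 19.2 and 28.9, 153 and 157, and 751 and 807 CPM. The mitotic gate went against a strict reading of its name, since 67.9% and 81.9% of its CD8 cells also passed the S phase cut and its histone level was above that of the S phase gate, so it held cells with S phase transcripts as well as mitotic ones. Median UMIs per CD8 cell also differed between gates, at 6427 and 5079 in non-cycling, 10270 and 8481 in S phase and 12770 and 12420 in mitotic cells, and each level below is therefore given in CPM of its own gate. CD4 markers outside the gate (Zbtb7b, Cd40lg and Tnfrsf4) summed to 63.1 to 110.3 CPM in the CD8 gates and 324 to 770 CPM in the CD4 gates. Genes of CD8 cells (Gzmk, Klrd1 and Eomes) separated the lineages less, at 372 to 747 CPM in the CD8 and 130.4 to 435 CPM in the CD4 gates, and Gzmk, at 189 CPM in non-cycling CD4 and 141 CPM in non-cycling CD8 cells of day +14, went against the gate names.

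One stretch of sequence is shown here because cyclin E and Cdk2 genes, which set the gates apart below, are known as E2F targets. The 250 bases before each RefSeq transcript start were searched on both strands for 4 E2F-type motifs, TTTCCCGC, TTTCGCGC, TTTGCCGC and TTTGGCGC, in the RefSeq promoter table of build GRCm38.p6, in which 8 of the 10 members were matched and Ccnd2 and Ccne2 were not. Cdk2, a gene of the minus strand, was the member with a match, at 140 bases before its RefSeq start, within chr10:128705159-128705216. In the line below, written in the direction of the gene, the capitals mark the match, which is TTTCCCGC read on the other strand.

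Cdk2: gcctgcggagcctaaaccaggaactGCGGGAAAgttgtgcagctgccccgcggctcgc

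Such a match was in 611 of 32851 promoter windows (1.86%) and in the windows of 583 of 27025 genes (2.16%), and it describes letters only, not binding.

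Of the 10 members, Ccne2 set the S phase and non-cycling CD8 gates apart most. In non-cycling CD8 cells Ccne2 gave 10 UMIs in all at day +7 and 13 at day +14, or 1.17 CPM (interval 0.560 to 2.15) and 2.47 CPM (1.31 to 4.22). In S phase CD8 cells it was at 42.4 CPM (37.6 to 47.5) and 34.4 CPM (30.8 to 38.4), from 287 and 327 UMIs. The ratio of S phase to non-cycling cells was 36.2 (19.4 to 76.4) at day +7 and 13.9 (8.04 to 26.5) at day +14, intervals that overlap. CD4 cells showed the same order, with Ccne2 at 1 and 3 UMIs (0.859 and 2.82 CPM) in non-cycling cells and at 36.9 and 38.1 CPM in S phase.

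Ccne1, the other E-type cyclin, was present at a low level outside S phase as well. It was at 14.1 CPM (11.7 to 16.9) and 10.8 CPM (8.20 to 14.0) in non-cycling CD8 cells, and at 68.5 CPM (62.4 to 75.0) and 55.4 CPM (50.8 to 60.3) in S phase, for ratios of 4.84 (3.96 to 5.96) and 5.12 (3.89 to 6.85). The share of Ccne2 in the UMIs of both E-type cyclins was 7.63% (3.72 to 13.6) and 18.6% (10.3 to 29.7) in non-cycling CD8 cells and 38.2% and 38.3% in S phase CD8 cells. The intervals of the 2 genes' S phase ratios did not overlap at either day, Ccne2 having the higher one.

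Cdk2, the kinase that cyclin E activates, separated the gates in the same way. It gave 31 and 26 UMIs in non-cycling CD8 cells (3.62 and 4.94 CPM) and 140 and 243 UMIs in S phase cells (20.7 and 25.6 CPM), for ratios of 5.70 (3.84 to 8.71) and 5.18 (3.45 to 8.10). In CD4 cells it rested on 7 to 59 UMIs a gate and was at 6.01 and 7.51 CPM in non-cycling cells, 22.6 and 14.6 CPM in S phase and 18.7 and 24.7 CPM in the mitotic gate, with overlapping intervals for non-cycling and S phase cells of day +14. Over both lineages, each of the 3 cyclin E and Cdk2 genes was therefore lowest in the non-cycling gate at each day.

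**Figure D1:**
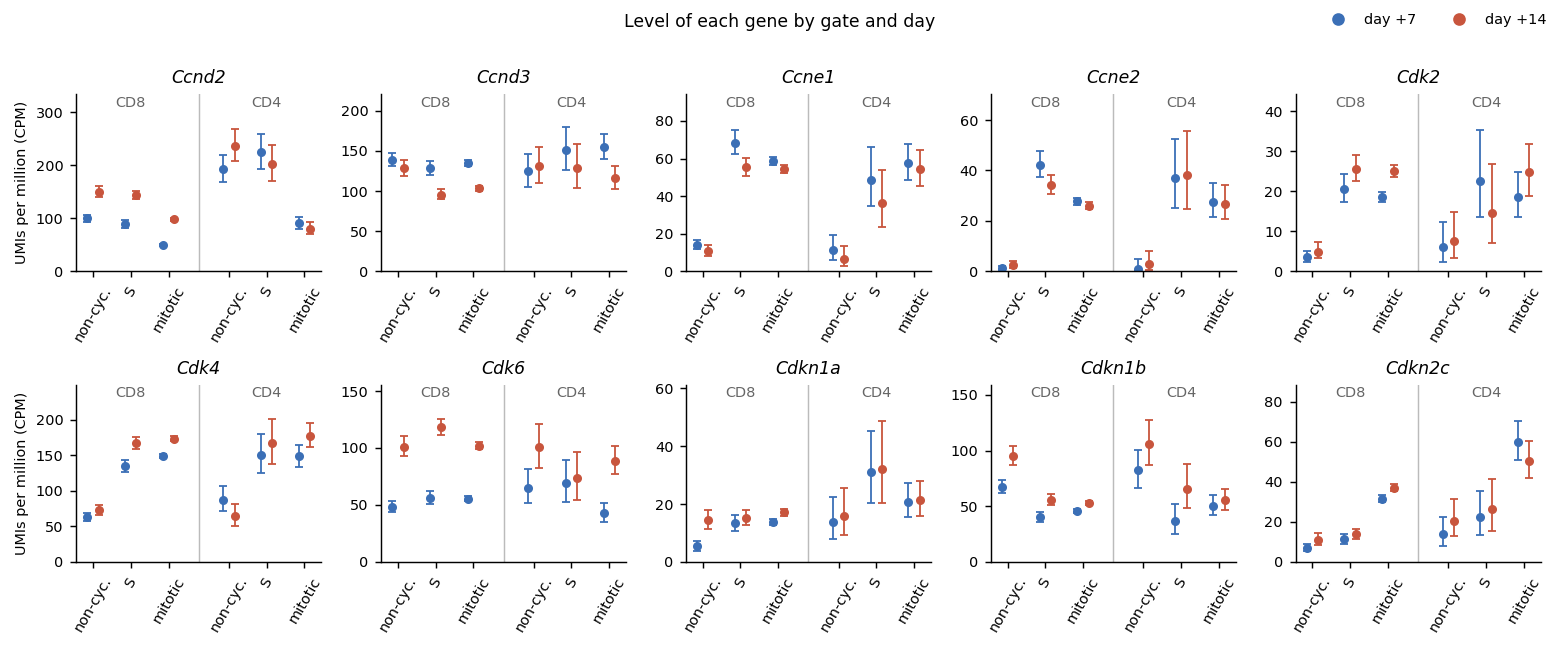
Levels of the 10 genes, in CPM of the gate, in non-cycling, S phase and mitotic CD8 and CD4 cells (x axis) at day +7 and day +14 (point colours), with 95% intervals for counting error as bars. Ccne1, Ccne2, Cdk2 and Cdk4 are lowest in the non-cycling gates, for example Cdk4 at 63.1 and 73.1 CPM in non-cycling CD8 cells, Cdkn1b is highest there, and Cdk6 lies higher at day +14 in all 3 CD8 gates.

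The kinases that pair with D-type cyclins behaved differently from each other. Cdk4 was at 63.1 CPM (57.9 to 68.7) and 73.1 CPM (66.0 to 80.8) in non-cycling CD8 cells, 135 CPM (127 to 144) and 168 CPM (159 to 176) in S phase and 149 CPM (146 to 152) and 173 CPM (170 to 177) in the mitotic gate, so that S phase exceeded non-cycling cells 2.14-fold (1.92 to 2.39) and 2.29-fold (2.05 to 2.57). Cdk6, its close relative, was at 48.4 CPM (43.8 to 53.3), 56.2 CPM (50.7 to 62.2) and 55.4 CPM (53.3 to 57.5) in the same gates at day +7, a ratio of S phase to non-cycling cells of 1.16 (1.01 to 1.34). The S phase interval of Cdk6 overlapped both others in CD8 cells at day +7, and at day +14 the S phase level, 118 CPM (111 to 125), lay above the mitotic one, 102 CPM (99.2 to 105).

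In CD8 cells neither D-type cyclin was higher in the S phase gate than in non-cycling cells. Ccnd2 was at 100.2 CPM (93.6 to 107) in non-cycling, 89.7 CPM (82.7 to 97.1) in S phase and 50.1 CPM (48.2 to 52.1) in mitotic CD8 cells at day +7, and at 150.0, 144 and 98.3 CPM in that order at day +14, with overlapping intervals for the first 2 gates at each day. As a share of a gate's UMIs, Ccnd2 was thus 1.997-fold and 1.53-fold lower in mitotic than in non-cycling CD8 cells. In CD4 cells, at 193 and 237 CPM in the non-cycling and 90.6 and 80.8 CPM in the mitotic gate, it was 2.13-fold and 2.93-fold lower. These folds are not per cell, since mitotic cells held more UMIs each. At day +7 and day +14, 3304 and 3214 mitotic CD8 cells gave 2504 and 4616 Ccnd2 UMIs. The 1241 and 947 non-cycling CD8 cells gave 857 and 790. Ccnd3 stayed within 1.5-fold between the gates of a lineage at both days, at 129 to 139 CPM in CD8 cells of day +7, 95.7 to 128 CPM in those of day +14 and 116 to 155 CPM in CD4 cells.

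The inhibitors each followed a different order. Cdkn1b was at 67.4 CPM (62.0 to 73.2) in non-cycling, 40.1 CPM (35.5 to 45.2) in S phase and 46.0 CPM (44.2 to 48.0) in mitotic CD8 cells at day +7, and at 95.1, 55.6 and 52.9 CPM at day +14. Its share of the gate's UMIs, which is not a level per cell, was 1.68-fold and 1.71-fold lower in S phase than in non-cycling cells. The CD4 gates had the same direction, with 82.4 and 106 CPM in non-cycling and 36.9 and 65.9 CPM in S phase cells. Cdkn2c was lowest where Cdkn1b was highest: it was at 7.13 CPM (5.45 to 9.16) and 11.0 CPM (8.36 to 14.2) in non-cycling, 11.4 CPM (8.97 to 14.2) and 13.8 CPM (11.5 to 16.4) in S phase and 31.6 CPM (30.1 to 33.2) and 37.0 CPM (35.3 to 38.8) in mitotic CD8 cells, the first 2 gates having overlapping intervals at each day, although the day +14 log2 ratio of S phase to non-cycling cells, 0.33, was 1.27 with scanpy's phases and 1.14 with cuts 3 times higher. Mitotic over non-cycling ratios of Cdkn2c were 4.44 (3.44 to 5.83) and 3.36 (2.58 to 4.44) in CD8 cells and 4.38 and 2.45 in CD4 cells, where it reached 60.1 and 50.7 CPM.

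Cdkn1a, the p21 gene and a target of p53, varied between the CD8 gates, most clearly at day +7. In CD8 cells of day +7 it was at 5.38 CPM (3.94 to 7.17) in non-cycling, 13.3 CPM (10.7 to 16.3) in S phase and 13.6 CPM (12.6 to 14.7) in mitotic cells, whereas at day +14 it was at 14.4 CPM (11.4 to 18.1), 15.2 CPM (12.8 to 17.9) and 17.1 CPM (16.0 to 18.4). At day +7 non-cycling cells were lowest, with S phase and mitotic intervals that overlapped, while at day +14 neighbouring gates had overlapping intervals. That contrast depends on the gates: the day +14 log2 ratio of S phase to non-cycling cells, 0.07 here, was 0.67 with cuts 1.5 times higher, 0.83 with cuts 3 times higher, 0.65 with scanpy's phases and 0.60 in cells thinned to 4000 UMIs, all past 1.5-fold. In CD4 cells it was at 13.7 and 16.0, 30.9 and 32.2, and 20.7 and 21.3 CPM in these gates, with S phase highest at both days and intervals that overlapped between neighbouring gates. In non-cycling CD8 cells of day +14, 29 of the 76 Cdkn1a UMIs were in 5 cells, without which the level was 8.92 CPM.

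Counts of members set these folds against all genes. A gene was counted when its mean over both groups was at least 10 CPM and the groups differed at least 1.5-fold in either direction. For S phase against non-cycling CD8 cells, 5 of the 8 members at that level passed at day +7, where 20.8% of all genes did, and 5 of 10 at day +14, where 23.9% did; these were Ccne1, Ccne2, Cdk2 and Cdk4 upwards and Cdkn1b downwards at each day. For mitotic against non-cycling CD8 cells it was 6 of 9 beside 26.7% of all genes at day +7 and 7 of 10 beside 33.1% at day +14, with Cdkn2c also upwards and Ccnd2 downwards at each day, and Cdkn1b downwards at day +14 alone, since its day +7 difference of 1.47-fold was under the line. The day +14 log2 ratio of Cdkn1b in S phase over non-cycling CD8 cells, -0.77, was -0.53 with the mean of per-cell CPM, under 1.5-fold. In CD4 cells that ratio, -0.69, was -0.25 with the same mean and -0.55 in cells thinned to 4000 UMIs, also under 1.5-fold. The day +14 log2 ratio of Ccnd2 in mitotic over non-cycling CD8 cells, -0.61, was near the line. It was -0.50 with cuts 1.5 times higher, -0.52 with cuts 3 times higher, -0.56 with scanpy's phases and -0.57 with at most 5% mitochondrial UMIs, all under 1.5-fold. The CD4 gates, with fewer cells, gave 7 of 10 beside 32.7% and 6 of 10 beside 29.4% for S phase, and 9 of 10 beside 33.0% and 7 of 10 beside 42.1% for the mitotic gate. Members left out were below the level in the comparison, Cdkn1a and Cdkn2c in S phase and Cdkn1a in the mitotic gate at day +7, and the 10 were chosen as cell cycle genes, so that counts above the share of all genes describe them and no more. In non-cycling CD8 cells, Ccne2 and Cdk2 at both days and Cdkn2c at day +7 were under 10 CPM. Where counted, they reached the level through the S phase or mitotic gate, which already required over 1.5-fold, so their passing was set beforehand. The same holds for genes of the lists below that were as low in 1 group, and all genes were filtered alike.

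**Figure D2:**
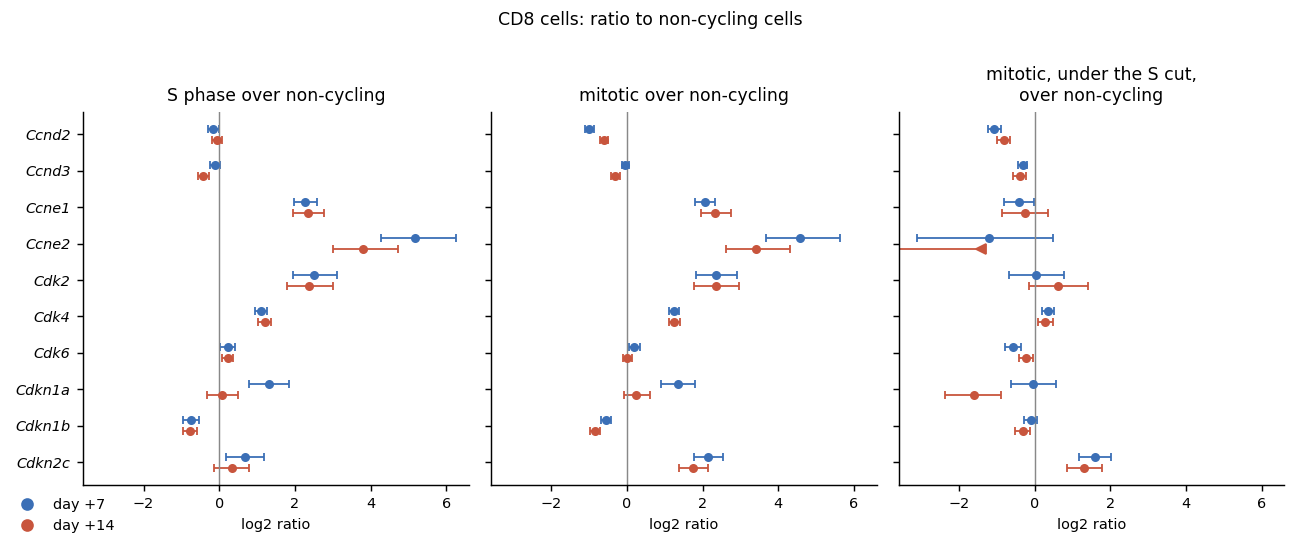
Log2 ratios of the 10 genes in CD8 cells against non-cycling CD8 cells of the same library, for the S phase gate, the whole mitotic gate and mitotic cells under the S phase cut (3 panels), at day +7 and day +14, with 95% intervals for counting error. Ccne2 has the highest ratio in S phase at both days (36.2-fold and 13.9-fold), and for mitotic cells under the S phase cut Ccne1 and Ccne2 are no higher than in non-cycling cells while Cdkn2c is, at 3.01-fold and 2.49-fold; the triangle marks an upper bound where no Ccne2 UMI was found.

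The mitotic gate held cells with and without the S phase score, and the members divided along that line. Of its CD8 cells, 1059 at day +7 and 580 at day +14 were under the S phase cut. In them Ccne2 gave 5 UMIs (0.504 CPM, interval 0.164 to 1.18) at day +7 and 0 UMIs at day +14. For the latter, 3 UMIs would be 0.647 CPM, and the interval reached up to 0.795 CPM. The log2 ratio of these day +14 cells to S phase cells had an interval with an upper end of -5.43. Ccne1 was at 10.6 and 9.05 CPM in mitotic cells under the cut and at 70.8 and 59.5 CPM in those over it. Cdk2 was at 3.73 and 7.54 CPM against 22.1 and 26.9 CPM, in that order. The division used the S phase score, in which no member takes part. Yet Ccne2 ran most like 2 genes of that score, Cdc6 and Mcm5 (r = 0.993 and 0.992 over the 12 gates and days). The division is therefore not independent of Ccne2.

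Cdkn2c and Cdkn1b differed across the S phase cut in other ways. Cdkn2c was above its non-cycling level on both sides of it, at 34.2 CPM (32.4 to 36.0) and 38.0 CPM (36.2 to 39.9) in mitotic CD8 cells over the cut, and in those under it at a lower 21.5 CPM (18.7 to 24.6) and 27.4 CPM (22.8 to 32.6), which was 3.01-fold and 2.49-fold over non-cycling cells and 1.89-fold and 1.98-fold over S phase cells. Cdkn1b was at 62.4 and 76.3 CPM there, against 42.0 and 50.4 CPM in mitotic cells over the cut, the opposite direction. Cdkn1a was at 5.24 and 4.74 CPM, which at day +14 was 3.04-fold below non-cycling cells. That fold rests on 22 UMIs in the mitotic cells and 76 in the non-cycling ones. Of the 76, 29 were in 5 cells, without which the non-cycling level was 8.92 CPM. Cdk4 was at 80.4 and 88.8 CPM, or 1.27-fold (interval of the log2 ratio 0.19 to 0.51) and 1.22-fold (0.08 to 0.48) over non-cycling cells, against 166 and 183 CPM over the cut. Cells under the cut also had fewer UMIs, with medians of 8063 and 6864 against 15330 and 13910.

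Finer steps of the mitotic score gave the same picture in all CD8 cells. Over 6 bins, from below 0.5 to above 8 times the cut, Ccne2 at day +7 went from 8.36 CPM to a peak of 47.4 CPM in the third bin, between 1 and 2 times the cut, and to 1.54 CPM in the last; at day +14 it went from 13.0 to 51.0 to 2.38 CPM. Ccne1 peaked at 74.1 CPM in the fourth bin and 79.8 CPM in the third and ended at 21.3 and 17.5 CPM. Cdkn2c was higher in each bin than in the one before at both days, from 7.62 to 72.5 CPM and from 11.1 to 79.2 CPM. Cdkn1b was lowest in the third bin, at 33.7 and 41.3 CPM, and was at 74.5 and 81.2 CPM in the last, against 63.1 and 83.3 CPM in the first, with separate intervals for these bins at day +7. The first bin is set by the mitotic score alone and also holds S phase cells. The interval of Cdkn1b in the non-cycling gate of day +7 overlapped that of the last bin. Ccnd2 was highest in the first bin, at 102 and 153 CPM, and lowest in the last, at 40.0 and 86.7 CPM. Each bin held at least 393 CD8 cells.

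**Figure D3:**
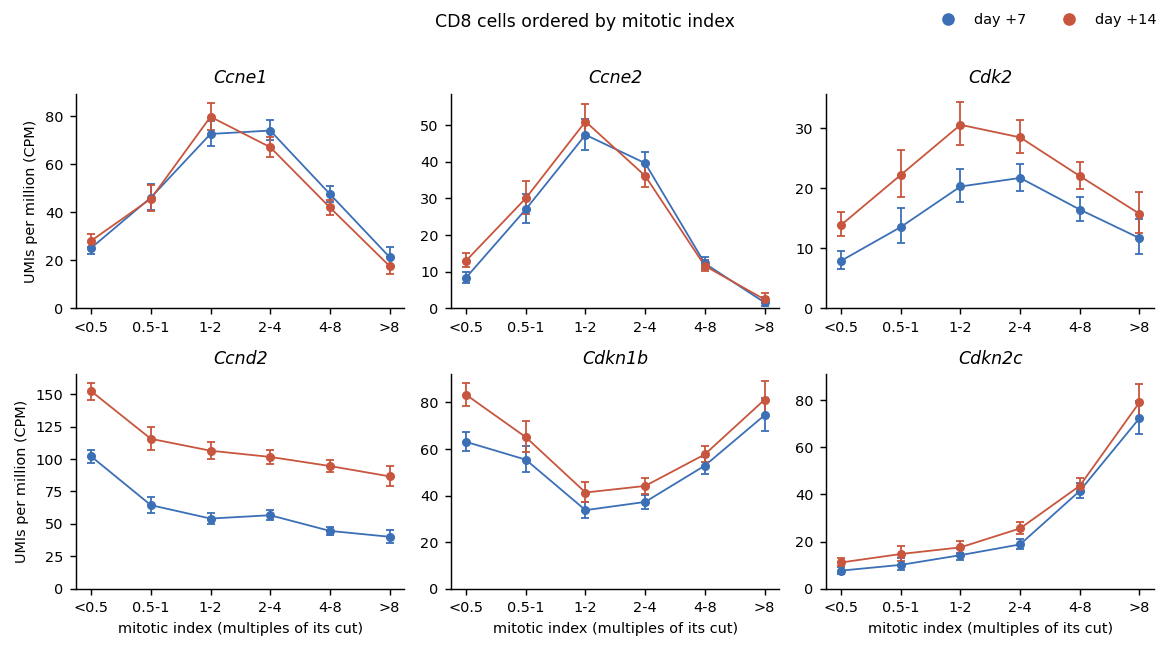
Levels of 6 of the members (CPM of the bin) in CD8 cells binned by their mitotic score as a multiple of the cut, at day +7 and day +14, with 95% intervals for counting error. Ccne2 peaks between 1 and 2 times the cut, at 47.4 and 51.0 CPM, and is at 1.54 and 2.38 CPM above 8 times the cut, where Cdkn2c is highest at 72.5 and 79.2 CPM.

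Among members at the 10 CPM level, Cdk6 and Ccnd2 had the highest day ratios in CD8 cells. Cdk6 was at 48.4 CPM (43.8 to 53.3) at day +7 and 101 CPM (92.8 to 110.2) at day +14 in non-cycling cells, a ratio of 2.09 (1.84 to 2.38), with 56.2 and 118 CPM in S phase, a ratio of 2.10 (1.87 to 2.37), and 55.4 and 102 CPM in the mitotic gate, a ratio of 1.84 (1.76 to 1.93). The intervals of the 2 libraries did not overlap in any CD8 gate. In CD4 cells Cdk6 was at 65.3 and 100.5 CPM in non-cycling cells, a ratio of 1.54 (1.14 to 2.10) whose log2 value, 0.62, was 0.44 without Foxp3 cells and then under the 1.5-fold line, and at 42.7 and 88.8 CPM in mitotic cells, a ratio of 2.08 (1.64 to 2.66), while S phase cells had 69.0 and 73.2 CPM, a ratio of 1.06 (0.713 to 1.58) from 58 and 50 UMIs.

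Ccnd2 differed between the days in CD8 cells, with less of a difference in CD4 cells. It was at 89.7 CPM (82.7 to 97.1) and 144 CPM (137 to 152) in S phase CD8 cells, a ratio of 1.61 (1.46 to 1.77), at 50.1 and 98.3 CPM in mitotic cells, a ratio of 1.96 (1.87 to 2.06), and at 100.2 and 150.0 CPM in non-cycling cells, a ratio of 1.498 (1.36 to 1.65), just under the fold counted. Its CD4 ratios were 0.900 (0.717 to 1.13), 0.892 (0.732 to 1.09) and 1.23 (1.02 to 1.47) in the same order. Day ratios of the median gene lay above 1 in each gate, with a median log2 ratio over all genes of 0.13 to 0.19, and with libraries scaled by the median ratio of abundant genes instead, the S phase CD8 log2 ratio of Ccnd2 was 0.55, under the 1.5-fold line.

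Ccnd3, the other D-type cyclin, went the other way in cycling cells. It was at 129 and 95.7 CPM in S phase CD8 cells, 1.35-fold lower at day +14, at 135 and 103 CPM in mitotic CD8 cells, 1.30-fold lower, and at 155 and 116 CPM in mitotic CD4 cells, 1.33-fold lower, with 139 and 128 CPM in non-cycling CD8 cells. None of these passed the 1.5-fold line. The share of Ccnd2 in the UMIs of both D-type cyclins therefore moved from 41.9% (39.8 to 44.1) to 53.9% (51.3 to 56.5) in non-cycling, from 41.0% to 60.1% in S phase and from 27.1% to 48.7% in mitotic CD8 cells. In CD4 cells it was 60.8% and 64.3%, 59.8% and 61.1%, and 36.9% and 41.0%, with overlapping intervals between the days in each gate.

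The share of Cdk6 in the UMIs of Cdk4 and Cdk6 moved with the day in most gates. It was 43.4% (40.2 to 46.6) and 58.1% (54.8 to 61.3) in non-cycling, 29.4% and 41.3% in S phase and 27.1% and 37.0% in mitotic CD8 cells, and 42.7% and 60.8% in non-cycling and 22.3% and 33.3% in mitotic CD4 cells, against 31.4% and 30.5% in S phase CD4 cells. Within each library the CD8 share was higher in non-cycling than in cycling cells. These shares compare gates and days and do not give the relative level of 2 genes, since capture differs between transcripts.

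**Figure D4:**
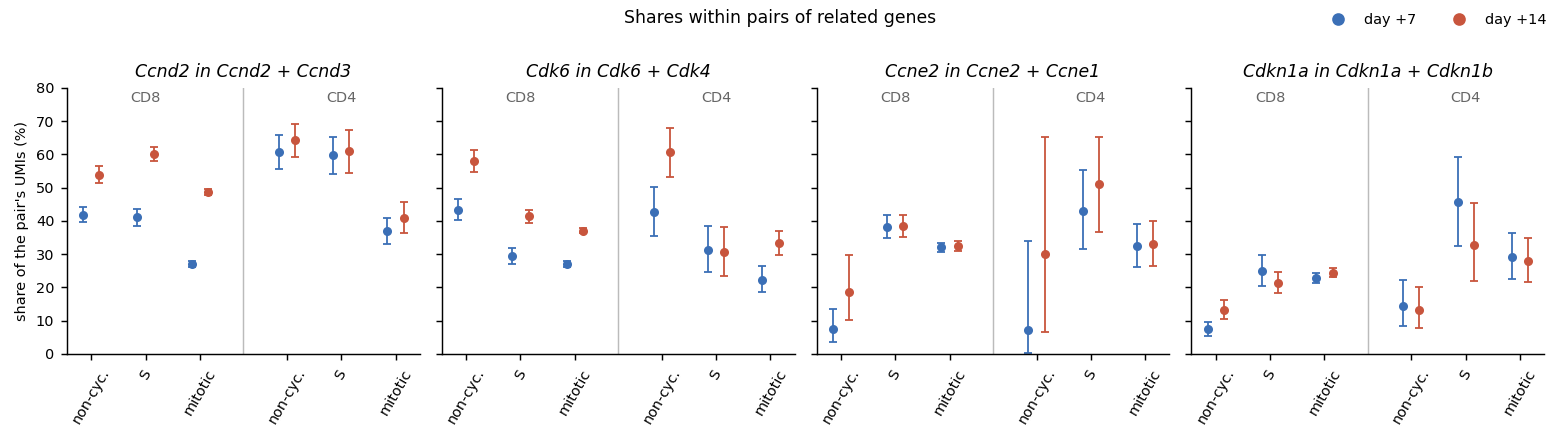
Share of 1 gene in the summed UMIs of a pair (Ccnd2 with Ccnd3, Cdk6 with Cdk4, Ccne2 with Ccne1, Cdkn1a with Cdkn1b) by gate at day +7 and day +14, with exact binomial 95% intervals. The Cdk6 share is higher at day +14 in 5 of the 6 gates, for example 43.4% and 58.1% in non-cycling CD8 cells, and the Ccnd2 share is higher at day +14 in all 3 CD8 gates.

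The day ratios of all 3 inhibitors were nearer 1 in mitotic than in non-cycling CD8 cells. Cdkn1a gave 46 UMIs at day +7 and 76 at day +14 in non-cycling CD8 cells, a ratio of 2.68 (1.84 to 3.96) with a mean just under the 10 CPM level. These UMIs were in 39 of 1241 and 37 of 947 cells, and without the 5 cells of most UMIs in each library the counts were 34 and 47, or 3.97 and 8.92 CPM. Its S phase and mitotic ratios were 1.14 (0.871 to 1.503) and 1.26 (1.14 to 1.40). Cdkn1b was at 67.4 and 95.1 CPM in non-cycling CD8 cells, a ratio of 1.41 (1.25 to 1.59), and at 40.1 and 55.6 CPM in S phase, a ratio of 1.39 (1.195 to 1.61), with a mitotic ratio of 1.15. Cdkn2c was at 7.13 and 11.0 CPM in non-cycling CD8 cells, a ratio of 1.55 (1.06 to 2.25) and below the 10 CPM level, with a mitotic ratio of 1.17.

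Marker transcripts of other cells, with sums that differed between the libraries, were also found in the non-cycling CD8 gate. All 5 markers of neutrophils, of macrophages and of red cell precursors were detected in it at both days, 2 and 3 of the 3 B cell markers and 2 and 1 of the 2 natural killer cell markers (Ncr1 at 0 at day +14). Markers of neutrophils summed to 25.1 and 55.8 CPM there, of macrophages to 26.9 and 24.5 CPM, of red cell precursors to 7.60 and 19.7 CPM, of B cells to 29.8 and 4.18 CPM and of natural killer cells to 21.6 and 3.04 CPM at day +7 and day +14. At day +7, Klrb1c made up 20.1 CPM of the natural killer cell sum, and Car2 made up 5.14 CPM of the red cell precursor sum. The red cell precursor sum of day +7 was higher in S phase and mitotic CD8 cells, at 31.7 and 44.1 CPM. Whether these transcripts came from other cells was not tested. Barcodes with macrophage RNA held Cdkn1a at 83.8 and 65.9 CPM, above every T cell gate. Those with neutrophil RNA held it at 4.93 and 7.60 CPM, and the macrophage sum was lower at day +14, when Cdkn1a was higher. Foxp3, the factor that defines regulatory T cells, gave 66 and 0 UMIs in non-cycling CD8 cells and 20 and 11 in non-cycling CD4 cells. The part of these cells in the differences was not tested.

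Few members passed the 1.5-fold line between the days. In CD8 cells 2 of 10 did in S phase (Ccnd2 and Cdk6), where 15.5% of all genes did, 2 of 10 in the mitotic gate (the same 2), where 10.8% did, and 1 of the 6 members at the level in non-cycling cells (Cdk6), where 21.4% did. In CD4 cells it was 2 of 10 in S phase, where 32.9% of all genes passed, 1 of 10 in the mitotic gate, where 17.2% did, and 2 of 7 in non-cycling cells, where 31.1% did. The S phase CD4 members were Cdkn1b, at 36.9 and 65.9 CPM with a ratio of 1.79 (1.11 to 2.92), and Cdk2, at 22.6 and 14.6 CPM from 19 and 10 UMIs, whose interval of the ratio ran from 0.269 to 1.47. With the score cuts 3 times higher both changed direction, to log2 ratios of -0.28 for Cdkn1b and 0.13 for Cdk2. The non-cycling CD4 members were Cdk6 and Cdkn2c, the latter at 13.7 and 20.7 CPM from 16 and 22 UMIs with an interval from 0.755 to 3.06. These shares are near those of all genes.

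**Figure D5:**
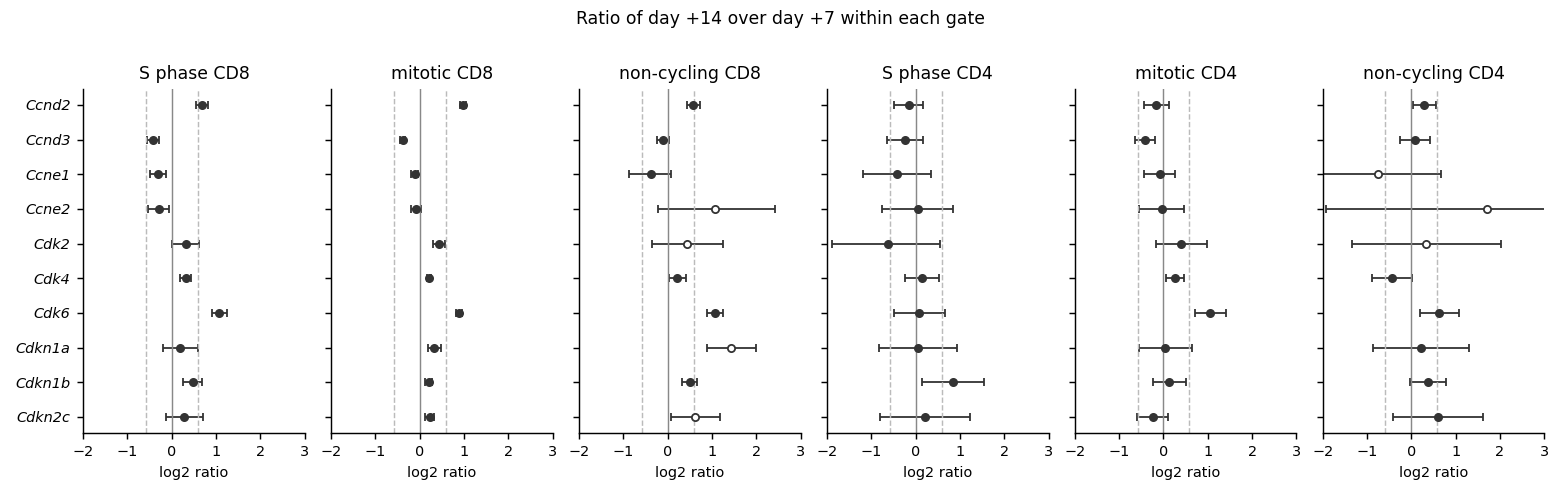
Log2 ratios of day +14 to day +7 for the 10 genes in each of the 6 gates, with 95% intervals for counting error; dashed lines mark 1.5-fold and hollow points have a mean under 10 CPM, and 2 intervals in non-cycling CD4 cells (Ccne1 and Ccne2) run past the axis. Cdk6 lies past the line in 5 of the 6 gates, the exception being S phase CD4 cells at 1.06-fold, and Ccnd2 lies past it in S phase and mitotic CD8 cells at 1.61-fold and 1.96-fold.

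Non-cycling CD4 and CD8 cells differed in Ccnd2 and Cdkn2c. Ccnd2 was at 193 CPM (169 to 220.2) in non-cycling CD4 and 100.2 CPM in non-cycling CD8 cells at day +7, a ratio of 1.93 (1.66 to 2.24), and at 237 and 150.0 CPM at day +14, a ratio of 1.58 (1.36 to 1.82), whose log2 value, 0.66, was 0.56 without Foxp3 cells and then under the 1.5-fold line. Cdkn2c was at 13.7 and 7.13 CPM, a ratio of 1.93 (1.04 to 3.38), and at 20.7 and 11.0 CPM, a ratio of 1.88 (1.09 to 3.11). These were 2 of the 7 members at the level at each day, beside 14.9% of all genes at day +7 and 17.9% at day +14. The 5 CD4 cells of day +7 with most UMIs held 51 of the 225 Ccnd2 UMIs, and without them the level was 149 CPM.

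Other genes of the pathway, from lists made for this purpose, give the setting of these values. Among 13 genes of the retinoblastoma and E2F families, 7 of the 9 at the level were higher in S phase than in non-cycling CD8 cells at day +7 and none lower, beside 20.8% of all genes past the line, with a median log2 ratio of 1.39 against 0.02 over all genes. E2f1, an activating E2F, was at 1.29 and 40.3 CPM, and E2f8, a repressing E2F that is itself induced in S phase, gave 1 UMI in non-cycling cells and 140 in S phase cells, a ratio of 177 (31.2 to 7031). E2f1 and E2f8 reached the 10 CPM level through S phase cells alone, so their passing was set by that level. Rbl2 (p130), the retinoblastoma relative that holds resting cells in check, was lowest of the list at a log2 ratio of -0.39.

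Rbl2 also had the highest day ratio of that list in each CD8 gate. It was at 46.5 and 142 CPM in non-cycling cells at day +7 and day +14, a ratio of 3.04, at 35.4 and 107 CPM in S phase, a ratio of 3.04, and at 35.1 and 86.7 CPM in mitotic cells, a ratio of 2.47. Of 12 and 11 list genes at the level, 2 passed in S phase and mitotic CD8 cells, Rbl2 and Tfdp1, the partner of E2F proteins, which was at 49.4 and 90.3 CPM in S phase. This compares with 15.5% and 10.8% of all genes. In non-cycling CD8 cells 3 of 6 passed, beside 21.4% of all genes, Rb1 among them at 10.9 and 17.7 CPM. The list's median log2 day ratios were 0.30, 0.32 and 0.60 in S phase, mitotic and non-cycling CD8 cells, against 0.18, 0.17 and 0.16 over all genes.

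Among 12 further cyclin, kinase and inhibitor genes, Cdkn2a, which encodes p16 and Arf, had the highest CD8 day ratio in cycling cells. It was at 8.85 and 19.9 CPM in S phase, a ratio of 2.25, and at 8.83 and 25.2 CPM in the mitotic gate, a ratio of 2.85 (2.56 to 3.19). Cdkn2d (p19), the other INK4 inhibitor of this list at the level, went the other way, with 48.4 and 31.6 CPM in S phase, 1.53-fold lower at day +14. In mitotic CD4 cells Cdkn2a was at 11.4 and 9.21 CPM. Ccnd1, the D-type cyclin that T cells hardly use, gave at most 41 UMIs in any gate of these day comparisons and stayed below the level. Of the 9 genes of this list at the level in S phase CD8 cells, 2 were higher and 1 lower at day +14, beside 15.5% of all genes, with a median log2 ratio of 0.11 against 0.18, and of the 9 in mitotic CD8 cells 2 were higher, beside 10.8% of all genes, with a median of 0.26 against 0.17.

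Among 12 genes for the activation and turnover of CDK complexes, 7 of 10 at the level were higher in S phase than in non-cycling CD8 cells at day +7 and none lower, beside 20.8% of all genes, with a median log2 ratio of 1.91 against 0.02. Fbxo5, which restrains the ubiquitin ligase that destroys mitotic cyclins, was highest, at 3.04 and 81.7 CPM. It reached the level through S phase cells alone, so its passing was set by that level. Fbxw7, the F-box protein that marks cyclin E for destruction, was lowest at a log2 ratio of -0.12. Between the days 2 of 11 passed in S phase CD8 cells, Cdc25a, a phosphatase that activates CDK2, at 22.9 and 37.7 CPM and Skp2, the F-box protein that marks p27 for destruction, at 9.44 and 14.9 CPM; 1 of 11 did in mitotic and 0 of 7 in non-cycling CD8 cells, beside 15.5%, 10.8% and 21.4% of all genes, with median log2 ratios of -0.06, 0.13 and 0.06 against 0.18, 0.17 and 0.16 over all genes.

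The 12 genes around p53 bear on Cdkn1a, which p53 activates. Between the days 2 of the 9 at the level were higher and none lower in non-cycling CD8 cells, near the 21.4% of all genes past the line, with a median log2 ratio of 0.20 against 0.16 over all genes; Zmat3 was highest, at 7.60 and 12.7 CPM, and Aen lowest at a log2 ratio of -0.06. In S phase against non-cycling CD8 cells of day +7, 3 of 8 were lower and none higher, beside 20.8% of all genes, Bbc3 (Puma) lowest at 17.4 and 7.38 CPM, with a median log2 ratio of -0.24.

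Of 8 genes known to act upstream of p27 or the D-type cyclins, 4 of the 7 at the level were higher and 2 lower at day +14 in non-cycling CD8 cells, beside 21.4% of all genes past the line. Stat5a, a transcription factor downstream of interleukin-2, was highest, at 10.5 and 20.3 CPM, and Klf2, a factor of resting T cells, was lowest, at 637 and 299.6 CPM, with a median log2 ratio of 0.63 over the list. In S phase CD8 cells 3 of 6 were higher and 1 lower, beside 15.5% of all genes, with Myc, which drives growth, highest at 17.7 and 37.8 CPM and Klf2 lowest at 428 and 244 CPM and a median of 0.56. In S phase against non-cycling CD8 cells of day +7, 2 of 7 were lower and none higher, beside 20.8% of all genes, and Btg1, an antiproliferative gene, was lowest at 391 and 165 CPM.

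The genes whose levels ran most like each member over the 12 gates and days were found by Pearson's r on log2(CPM + 1), as a description over 12 groups that share 2 libraries and their depths. Ccne2 was most like Cdc6 (r = 0.993) and Mcm5 (0.992), both of them genes of the S phase score. Ccne1 was most like Rnaseh2b (0.991), Cdk2 like Syce2 (0.988), Cdk4 like Srsf2 (0.984) and Cdkn1b like Oxa1l (0.966). Lower values came with Cdkn2c and Ube2k (0.960), Cdk6 and Atp6v0a2 (0.957), Ccnd2 and Il27ra (0.925), Ccnd3 and Tmbim4 (0.914), and Cdkn1a and Tfdp2 (0.910).

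In build GRCm38 the members lie at chr6:127125162-127152193 (Ccnd2), chr17:47505051-47599691 (Ccnd3), chr7:38097984-38107534 (Ccne1), chr4:11191351-11204779 (Ccne2), chr10:128697939-128705031 (Cdk2), chr10:127063534-127067920 (Cdk4), chr5:3341485-3531008 (Cdk6), chr17:29090976-29100727 (Cdkn1a), chr6:134920401-134925513 (Cdkn1b) and chr4:109660876-109667189 (Cdkn2c). Ccnd2, Ccnd3, Ccne2, Cdk2, Cdk4 and Cdk6 overlap a gene on the opposite strand there, among them Bysl for Ccnd3, Ints8 for Ccne2, Pmel for Cdk2 and Tspan31 for Cdk4. Cell Ranger counts reads in the sense direction of a gene by default, and the settings used were not given in the sources used here.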

How the data were processed

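The authors aligned and counted reads with Cell Ranger 6.1.2 against mm10, per the submitters' processing notes, and deposited UMI counts per gene and barcode, with no normalization; the annotation release was not given in the sources used here. The 10 members and all lists were chosen with earlier results of these data known. Non-T barcodes had over 0.5% of UMIs from neutrophil, macrophage, erythroid and B cell markers, and T cells at least 3 UMIs of 6 T cell genes. CD8 cells had Cd8a or Cd8b1 UMIs and none of Cd4, and CD4 cells the reverse. S phase and mitotic scores are UMIs of the 25 and 22 genes per 10000, cut by Otsu's method on log2(1 + score) at 10.3 and 8.51; mitotic cells were at or over the mitotic cut, S phase cells at or over the S phase cut and under the mitotic one, and non-cycling cells under 0.5 times both. UMIs were summed per gate, with exact Poisson intervals for levels, conditional binomial intervals for ratios and Clopper-Pearson intervals for shares. No doublets were removed, and an alternative left out 433 and 518 barcodes of high Scrublet score. All 10 members were named, and of each list the highest and lowest gene, with others chosen after their values were seen. In data simulated for the day comparison in non-cycling CD8 cells over 6662 genes, 194 of 200 genes changed 2-fold were recovered and 95.8% of intervals held the true ratio. The simulated counts were Poisson draws, the model on which the intervals rest, so this checks the calculation only. Clumping of UMIs in few cells and differences between mice or libraries were not simulated. Python 3.11.15, numpy 2.4.6, scipy 1.17.1, pandas 2.3.3, scanpy 1.11.5 and matplotlib 3.10.9 were used.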

Additional observations from a re-analysis of the deposited data

How the results depend on the processing

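No paired analysis was possible because each day has 1 library. Counts of members past 1.5-fold were recomputed under each alternative, and those that moved by over 1.5 times follow. Without Foxp3 cells in the CD4 gates they were 1 for CD4 over CD8 at day +14, 1 for the day comparison in S phase CD4 and 0 in non-cycling CD4 cells. With the highest Scrublet scores left out they were 1 for the day comparison in S phase CD4 and 2 in non-cycling CD8 cells, with cuts 1.5 times higher 1 each in S phase and non-cycling CD4 cells, with the mean of per-cell CPM 2 each in mitotic CD4 and non-cycling CD8 cells, and with median-ratio scaling 1 for CD4 over CD8 at day +14 and 1 for the day comparison in S phase CD8 cells. With no 10 CPM level they were 4 for CD4 over CD8 at each day and 4 for the day comparison in non-cycling CD4 and in non-cycling CD8 cells, since more members entered. With scanpy's phase scores they were 4 for CD4 over CD8 at day +14, 1, 2 and 2 for the day comparison in S phase CD4, mitotic CD4 and non-cycling CD8 cells, and 5 for mitotic over non-cycling CD4 cells at day +7. The other alternatives were chosen after seeing the data. With cells thinned to 4000 UMIs the counts were 4 for CD4 over CD8 at day +7 and 3, 4 and 3 for the day comparison in mitotic CD4, non-cycling CD4 and non-cycling CD8 cells; with cuts 3 times higher, 4 for CD4 over CD8 at day +14, 1, 3 and 2 for the day comparison in S phase CD4, mitotic CD4 and non-cycling CD8 cells and 5 for mitotic over non-cycling CD4 cells at day +7. Without cells over the S phase cut in the mitotic gate, they were 4 for the day comparison in mitotic CD4 cells and, for mitotic over non-cycling cells, 4 and 3 in CD4 and 2 and 2 in CD8 cells at day +7 and day +14. A limit of 5% mitochondrial UMIs changed mitotic over non-cycling counts from 7 to 6 in CD8 cells at day +14 and from 9 to 7 in CD4 cells at day +7 and left the others as they were.

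The following log2 ratios of members past 1.5-fold changed sign. With cuts 3 times higher, the S phase CD4 day ratios were 0.13 for Cdk2 and -0.28 for Cdkn1b. Without cells over the S phase cut, the mitotic over non-cycling ratio of Ccne1 was -0.42 and -0.26 in CD8 and -0.42 and -1.24 in CD4 cells at day +7 and day +14, that of Ccne2 was -1.21 in CD8 cells at day +7 and -0.014 in CD4 cells at day +14, that of Cdk2 was -0.85 and -1.43 in CD4 cells and that of Cdk4 was -0.23 in CD4 cells at day +7. Ratios under 1.5-fold changed sign too, among them Cdkn1a in mitotic over non-cycling CD8 cells at day +14, from 0.25 to -1.61, and the day ratio of Cdkn2c in mitotic CD4 cells, from -0.25 to 0.86, both without cells over the S phase cut. Leaving out those cells takes the cells of high S phase score from the gate by construction, and the cause of the other changes was not tested. The day ratio of Cdk6 in CD8 cells was between 0.73 and 1.17 in S phase, 0.69 and 1.39 in the mitotic gate and 0.91 and 1.23 in non-cycling cells, on the log2 scale, and stayed past 1.5-fold under each of these alternatives. The CD4 gates of 73 to 218 cells limit every CD4 ratio of a low gene.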
